A study of Mus musculus with 27 samples.

Results

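Rbm3 and Cirbp, the genes of the cold-inducible RNA-binding proteins, were followed across 27 RNA-seq libraries from the frontal cortex and striatum of mice with and without an enhancer near Igf2. They are 2 of the 52636 gene identifiers in the count tables, found by symbol, and both passed the filter on low counts in each region. The pair was selected on genotype results of these same libraries, in which the level of Rbm3 was lower in mutants in both regions, so the genotype values given here are descriptions without a test. Hsph1, which encodes a large heat shock protein of the Hsp110 family and rises with heat, was measured beside them for comparison.

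Wild-type mice and homozygous Igf2enh-/- mice were on the 129S1 background and were about 2.5 months old. Igf2enh-/- mice carry a germline deletion of an intergenic enhancer between H19 and Igf2, so the element is missing from every cell type and from all stages of development. The mutant allele also retains 1 loxP site, since its drug selection marker was cut out with Cre under Hprt control. All mice were kept by sex with littermates on a light and dark cycle in a temperature-controlled room. No treatment was given. The frontal cortex set held 6 wild-type and 6 Igf2enh-/- libraries, with 3 females and 3 males in each. The striatal set held 7 wild-type libraries (3 females, 4 males) and 8 Igf2enh-/- libraries (4 females, 4 males). Which frontal cortex and striatal libraries came from 1 mouse is not stated in the labels, nor are body temperature and the time of tissue collection. Libraries are named by the number in their label.

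Rbm3 and Cirbp proteins are small, with a single RNA recognition motif followed by a glycine-rich tail, and their mRNAs rise when mammalian cells or brain are mildly cooled and fall with warming. In neurons, Rbm3 is known for supporting protein synthesis and the maintenance of synapses in the cold. Cirbp is known for binding the 3' ends of transcripts, those of clock genes included, and for linking daily body temperature cycles to the clock. Heat shock chaperones such as Hsph1 are driven by heat shock factors and respond to temperature in the opposite sense.

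In NCBIM37, Rbm3 (ENSMUSG00000031167) occupies chromosome X, bases 7716101 to 7723006, minus strand. Cirbp (ENSMUSG00000045193) occupies chromosome 10, bases 79628730 to 79635531, plus strand, and Hsph1 (ENSMUSG00000029657) chromosome 5, bases 150416862 to 150438951, minus strand. Counts covered the exons of all 3 protein-coding genes. An antisense gene, Rbm3os (ENSMUSG00000055188), overlaps Rbm3 by 452 bases and held 2 to 14 counts per library, against 780 to 1963 counts for Rbm3. Whether counting used strand is not given in the sources used here, so reads of the overlap could belong to either gene. RefSeq also lists a pseudogene copy, Rbm3-ps, and reads shared with it were not checked.

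The promoters are shown because the question of this comparison is how cold- and heat-responsive genes moved, and the sequences carry letters linked to both responses. RefSeq windows of 300 bases in GRCm38.p6 ran from 250 bases before to 50 bases after a transcript start. They were matched for Cirbp and Hsph1, with 2 windows for each. No window was available for Rbm3, so its promoter was not searched. The first window of each gene is printed 5' to 3' on the strand of the gene, and capitals mark every match to the letters searched.
Cirbp (chr10:80167589-80167888, plus strand): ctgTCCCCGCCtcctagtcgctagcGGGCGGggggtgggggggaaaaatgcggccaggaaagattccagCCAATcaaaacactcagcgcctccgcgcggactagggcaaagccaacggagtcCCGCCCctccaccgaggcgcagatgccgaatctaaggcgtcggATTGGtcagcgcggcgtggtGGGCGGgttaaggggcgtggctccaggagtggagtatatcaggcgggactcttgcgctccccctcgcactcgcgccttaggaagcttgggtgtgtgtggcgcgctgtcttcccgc
Hsph1 (chr5:149636287-149636586, minus strand): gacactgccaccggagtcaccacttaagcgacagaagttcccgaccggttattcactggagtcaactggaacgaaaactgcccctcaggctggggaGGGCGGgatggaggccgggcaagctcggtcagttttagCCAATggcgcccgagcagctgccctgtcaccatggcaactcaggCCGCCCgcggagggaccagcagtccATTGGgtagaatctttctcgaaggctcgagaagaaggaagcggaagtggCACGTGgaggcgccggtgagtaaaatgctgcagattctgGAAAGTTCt
The Cirbp window held TCCCCGCC, an octamer known as the mild cold response element, 247 bases before the start. Matches to this octamer on either strand were present in 5.38% of 32851 RefSeq promoter windows. The same window held 3 GC boxes (GGGCGG, bound by Sp1, in 35.7% of windows) and 2 CAAT boxes (CCAAT, bound by NF-Y, in 37.4%), and the second Cirbp window held 4 GC boxes. The octamer and the GC boxes did not overlap in the printed window. The Hsph1 window held a heat shock element core (GAANNTTC, in 7.86% of windows) as GAAAGTTC, 41 bases after the start. Only these letters were searched for this element, so other forms of it were neither marked nor counted. The Hsph1 window also held an E-box (CACGTG, bound by the CLOCK and BMAL1 pair, in 7.15%), 2 GC boxes and 2 CAAT boxes. A D-box (TTATGTAA, in 0.938%), a CRE (TGACGTCA, in 1.79%) and a TATA box (TATAAA, in 13.6%) were not found in these windows. The windows of Cirbp had 65.7% and 70% G and C with 29 and 38 CpG sites, and those of Hsph1 59% and 58% with 19 and 18. A match of letters is not a measurement of binding.

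Each library held 23686945 to 33926904 counts in genes. Levels are CPM, that is, counts scaled to a common library size of tested genes with edgeR's trimmed mean of M-values (TMM) factors, which lay between 0.978 and 1.03. At this depth counting error was at most 3.58% for Rbm3, 2.80% for Cirbp and 1.24% for Hsph1 in any library. Igf2, the gene beside the deleted enhancer, was measured at 51.6 to 106 CPM in wild-type and 87.8 to 172 CPM in Igf2enh-/- frontal cortex. In striatum it was at 34.5 to 44.7 CPM and 46.7 to 265 CPM, with the top value in library 15. Library 15 (Igf2enh-/- female striatum) stood apart with 3410 CPM summed over 8 choroid plexus markers, against a median of 35.3 CPM in its group. Library 20 (wild-type male striatum) had the highest sum of 6 cortical neuron markers among striatal libraries, 1041 CPM, and of 9 glial markers, 8771 CPM. Markers of medium spiny neurons summed to 2348 to 6361 CPM in striatum and to 84.2 to 152 CPM in frontal cortex, and Xist was at 318 CPM or more in every female library and at 0.279 CPM or less in every male library. These are bulk tissues, so fewer cells of a type and less RNA per cell cannot be told apart.

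Rbm3 had a lower level in Igf2enh-/- than in wild-type mice by about the same amount in both regions. In frontal cortex, wild-type females had 45.6, 52.1 and 56.4 CPM and wild-type males had 57.9, 59.6 and 64.8 CPM. Igf2enh-/- females had 33.1, 35.9 and 38.7 CPM and Igf2enh-/- males had 39.0, 41.6 and 42.4 CPM. All 6 mutant libraries were thus below all 6 wild-type libraries, a separation in that direction shown by 0.682% of the 13936 genes tested. The means were 56.1 ± 6.58 CPM (SD, n = 6) in wild-type and 38.4 ± 3.52 CPM (SD, n = 6) in Igf2enh-/- mice, a change of -31.4%. The fitted log2 difference, with sex as a term, was -0.54 (standard error 0.0541).

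In striatum, wild-type females had 39.6, 49.6 and 54.8 CPM of Rbm3, and the wild-type males ranged from 56.0 to 60.2 CPM with a median of 58.6 CPM. Igf2enh-/- females ranged from 32.0 to 38.3 CPM with a median of 35.8 CPM, and Igf2enh-/- males from 36.5 to 40.5 CPM with a median of 38.2 CPM. The groups overlapped through a single wild-type library, number 14 from a female (39.6 CPM), which lay below the mutant male libraries 21 (39.9 CPM) and 23 (40.5 CPM). Every mutant library was below every wild-type library in 0.108% of the 13875 genes tested, and Rbm3 was not one of them. Within each sex every mutant library was below every wild-type library for Rbm3, a pattern in that direction shown by 0.288% of genes. The means were 53.9 ± 7.22 CPM (SD, n = 7) and 36.9 ± 2.71 CPM (SD, n = 8), a change of -31.5%, with a log2 difference of -0.53 (standard error 0.0638).

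Cirbp was also lower in the mutant mean of both regions, but by a smaller amount and with overlapping groups. In frontal cortex, wild-type females had 58.0, 63.3 and 63.3 CPM and males 60.8, 64.6 and 70.9 CPM. Igf2enh-/- females had 51.5, 58.5 and 60.3 CPM and males 49.5, 61.9 and 63.7 CPM. Only 2 of 6 mutant libraries, 3 and 7, were below every wild-type library of the frontal cortex. The means were 63.5 ± 4.31 and 57.6 ± 5.76 CPM (SD, n = 6 each), a change of -9.34%, with a log2 difference of -0.14 (standard error 0.0627). Without mutant library 7 it was -0.09. In striatum wild-type libraries ranged from 52.9 to 69.3 CPM and mutant libraries from 48.9 to 62.3 CPM, with 3 of 8 mutant libraries below every wild-type one. The striatal means were 60.9 ± 6.20 (SD, n = 7) and 54.7 ± 4.68 CPM (SD, n = 8), a change of -10.2%, with a log2 difference of -0.15 (standard error 0.0631).

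Hsph1 had the opposite sign. Its level was 331 ± 11.6 CPM in wild-type and 385 ± 10.4 CPM in Igf2enh-/- frontal cortex (SD, n = 6 each), a log2 difference of 0.22 (standard error 0.0299). All 6 mutant libraries were above all 6 wild-type libraries, as they were for 0.610% of genes. Striatal libraries had 329 ± 35.4 CPM (SD, n = 7) and 386 ± 38.4 CPM (SD, n = 8), with a log2 difference of 0.23 (standard error 0.0746), and the groups overlapped. Per kilobase of exon, wild-type frontal cortex held 11.9 CPM of Rbm3, 24.4 CPM of Cirbp and 47.0 CPM of Hsph1, and striatum 11.5, 23.4 and 46.7 CPM. By this measure Cirbp was the more abundant of the cold-inducible pair, although exon lengths were summed over all annotated transcripts and need not be those used in brain.

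**Figure D1:**
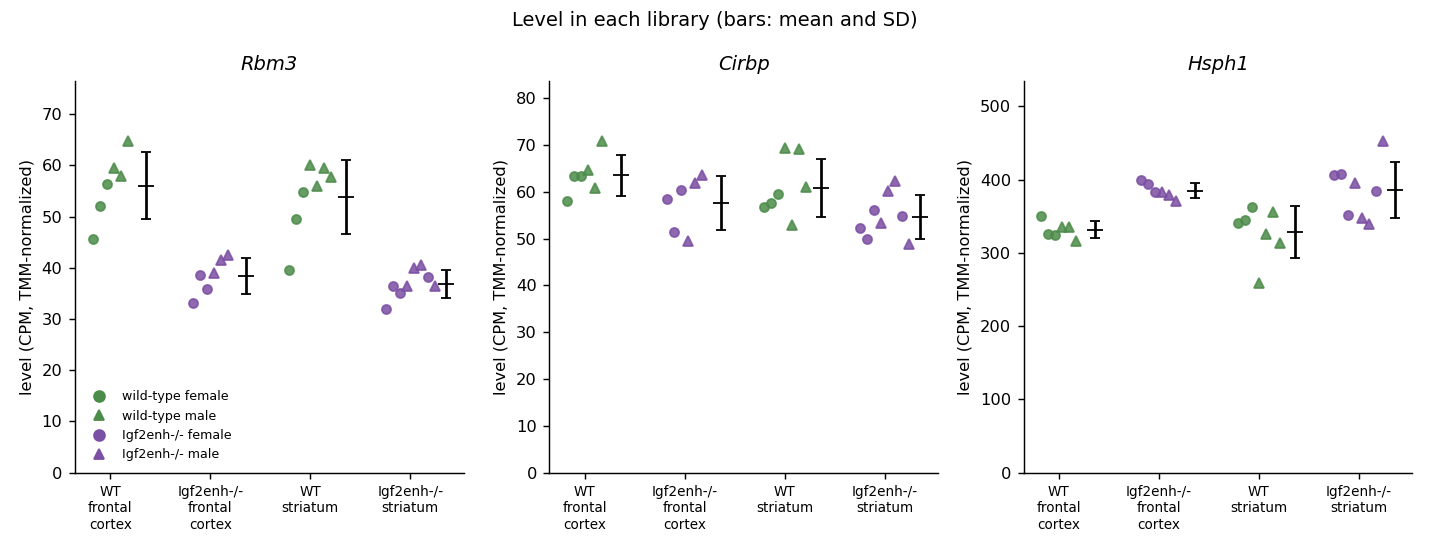
Level of Rbm3, Cirbp and Hsph1 in CPM (y axis, from 0) in each of the 27 libraries, by genotype and region (x axis), with circles for females and triangles for males. Black marks and bars are the mean and SD of each group. Rbm3 means were 56.1 and 38.4 CPM in wild-type and Igf2enh-/- frontal cortex and 53.9 and 36.9 CPM in striatum.

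The tested meningeal and blood markers had higher mutant means in both regions. The 8 meningeal fibroblast markers summed to 67.2 to 133 CPM in wild-type and 99.3 to 157 CPM in Igf2enh-/- frontal cortex. All 8 had a higher mutant mean, with none at 0. None passed the adjusted edgeR test, but 6 of the 8 had an unadjusted p under 0.05, against 13.5% of all genes. The 3 blood markers with an identifier summed to 9.68 to 15.7 CPM and 13.7 to 20.2 CPM, and all 3 had an unadjusted p under 0.05. In striatum the median log2 difference was 0.24 for the 6 meningeal markers tested and 0.31 for the 3 blood markers, with 0 called. There 1 meningeal and 0 blood markers had an unadjusted p under 0.05, against 10.0% of all genes. Library 1 among mutants and library 2 among wild-type had the highest meningeal sum of their group, 157 and 133 CPM, and the lowest Rbm3. With the mean meningeal marker level as a term, chosen after seeing the data, Rbm3 had a log2 difference of -0.43 (frontal cortex) and -0.53 (striatum). In the same fits Cirbp had one of -0.10 and -0.14, and Hsph1 one of 0.17 and 0.23. With libraries 1 and 2 left out, Rbm3 was at -0.56 and Cirbp at -0.17 in frontal cortex. With libraries 15 and 20 left out, Rbm3 was at -0.52 and Cirbp at -0.11 in striatum. Within genotype and sex, the 6 meningeal markers measured in both regions had a median correlation with Rbm3 of -0.77 (frontal cortex) and 0.06 (striatum), and the 3 blood markers one of -0.50 and -0.40. With Cirbp the medians were -0.28 and -0.25 for meningeal markers and -0.61 and -0.52 for blood markers. The part of meningeal or blood RNA in these values was not tested beyond this.

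Sex did not enter the choice of the genes and was tested in the same fits with edgeR's quasi-likelihood test and Benjamini-Hochberg adjustment over all genes. Rbm3 was at a higher mean level in males in each genotype and region, but did not pass. In frontal cortex every male library was above every female library of its genotype, a pattern shown by 0.330% of genes. The log2 difference of males over females was 0.22 (standard error 0.0540, adjusted p = 0.440), the rank 34 by p among 13936 genes. Sex was called in 6 genes (0.0431%) there, with 1054 at an unadjusted p under 0.05. Without the filter on low counts the same difference, 0.22, had an adjusted p of 0.0136 and passed. In striatum the log2 difference was 0.19 (standard error 0.0640, adjusted p = 0.448), where 6 genes (0.0432%) were called and 1496 had an unadjusted p under 0.05. For Cirbp the sex difference was 0.06 (adjusted p = 0.874) in frontal cortex and 0.10 (adjusted p = 0.523) in striatum, with 95% intervals from -0.06 to 0.19 and from -0.03 to 0.22.

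Whether the genotype difference itself differed between the sexes was tested as a product term in edgeR. For Rbm3 the term was -0.05 (95% interval -0.27 to 0.17, adjusted p = 0.937) in frontal cortex and -0.17 (-0.41 to 0.08, adjusted p = 1.000) in striatum. For Cirbp it was -0.05 (-0.30 to 0.21) and -0.04 (-0.30 to 0.21). None passed. Over all genes 3 (0.0215%) were called in frontal cortex and 0 (0%) in striatum by edgeR, with 887 and 355 at an unadjusted p under 0.05. DESeq2 called 8 and 2 genes, the likelihood ratio test 12 and 1, and limma-voom 4 and 0.

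Neither gene differed detectably between regions, in a tissue pair in which most genes did. Striatum over frontal cortex was called in 67.7% of 13414 genes in wild-type and in 68.9% in Igf2enh-/- mice. The wild-type log2 difference was -0.10 for Rbm3 (95% interval -0.22 to 0.03, adjusted p = 0.177) and -0.09 for Cirbp (-0.22 to 0.04, adjusted p = 0.233). In Igf2enh-/- mice it was -0.08 (adjusted p = 0.225) and -0.10 (adjusted p = 0.165). The genotype difference in striatum minus that in frontal cortex was 0.01 for Rbm3 (-0.16 to 0.18) and -0.01 for Cirbp (-0.20 to 0.17), with an adjusted p of 1.000 for both. The edgeR test called 0 of 13414 genes (0%) for this term, with 405 at an unadjusted p under 0.05, and the likelihood ratio test, DESeq2 and limma-voom also called 0. These fits treat all 27 libraries as independent, which they are not if regions share a mouse.

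The next question was whether the genes moved together from library to library once the genotype mean had been removed. Of 6 relations, tested with 100000 two-sided permutations of libraries within genotype, Rbm3 with Hsph1 in frontal cortex and Cirbp with Hsph1 in striatum passed after adjustment. In frontal cortex Rbm3 was lower where Hsph1 was higher, with r = -0.77 (n = 12 libraries, permutation p = 0.00883, adjusted p = 0.0391) and Spearman's rho = -0.69 (permutation p = 0.0281, adjusted p = 0.0421). Without libraries 1 and 2 that relation did not pass, with r = -0.44 (n = 10, permutation p = 0.239). The permutations did not hold sex fixed, and with centring on genotype and sex r was -0.81 but the adjusted p was 0.0568. It was 0.0508 after scaling by total counts, and leaving out library 1, 2, 11 or 12 alone also ended the call. In striatum r was -0.39 (permutation p = 0.189, adjusted p = 0.189) and rho was -0.54 (permutation p = 0.0518, adjusted p = 0.0518), and r was -0.50 without libraries 13 and 14.

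Cirbp with Hsph1 in striatum had r = -0.64 (n = 15 libraries, permutation p = 0.0130, adjusted p = 0.0391) and rho = -0.67 (permutation p = 0.0117, adjusted p = 0.0235). Without libraries 20 and 23, the farthest from the median in Cirbp, r was -0.39 (n = 13, permutation p = 0.176) and the relation did not pass. Leaving them out also narrows the range of Cirbp, so dependence on these 2 in particular cannot be read from it. The call was also lost when any 1 of 10 libraries was left out (13, 15, 16, 17, 19, 20, 21, 23, 25 or 27), with r between -0.84 and -0.53 over all 15 single omissions, and after scaling by total counts (adjusted p = 0.0623) or centring on genotype and sex (adjusted p = 0.157). In frontal cortex r was -0.62 (permutation p = 0.0322, adjusted p = 0.0644) and rho was -0.77 (permutation p = 0.00951, adjusted p = 0.0235), and without libraries 3 and 7 r was -0.88 (permutation p = 0.00272). The sign was negative in both regions for both cold-inducible genes, as it was for the blood markers given above.

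Rbm3 with Cirbp had positive values that did not pass by Pearson's r. In frontal cortex r was 0.44 (n = 12, permutation p = 0.151, adjusted p = 0.181), rho was 0.63 (permutation p = 0.0483, adjusted p = 0.0518), and r was 0.45 without libraries 1 and 2. In striatum r was 0.55 (n = 15, permutation p = 0.0477, adjusted p = 0.0715), and 0.68 without libraries 13 and 14 (permutation p = 0.0178). Spearman's rho in striatum was 0.69 (permutation p = 0.00971, adjusted p = 0.0235) and passed.

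Within single groups, tested exactly and adjusted over 12 relations, 1 relation passed. Among the 8 Igf2enh-/- striatal libraries the order of Cirbp was the exact reverse of the order of Hsph1. There rho was -1 (exact permutation p = 4.96e-05, the smallest these libraries allow, adjusted p = 0.000595) and r was -0.94 (exact permutation p = 0.000198, adjusted p = 0.00238), with r = -0.92 after the 2 farthest were left out. Library 27 had the lowest Cirbp (48.9 CPM) and the highest Hsph1 (453 CPM), and library 23 the highest Cirbp (62.3 CPM) and the lowest Hsph1 (339 CPM). Library 23 also had the highest sum of 6 cortical neuron markers in this group, 768 CPM, against a median of 263 CPM. The part of tissue make-up in this relation was not tested. Among the 7 wild-type striatal libraries r was -0.39 (exact permutation p = 0.404, adjusted p = 0.441), and a difference between the genotypes in this relation was not tested.

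**Figure D2:**
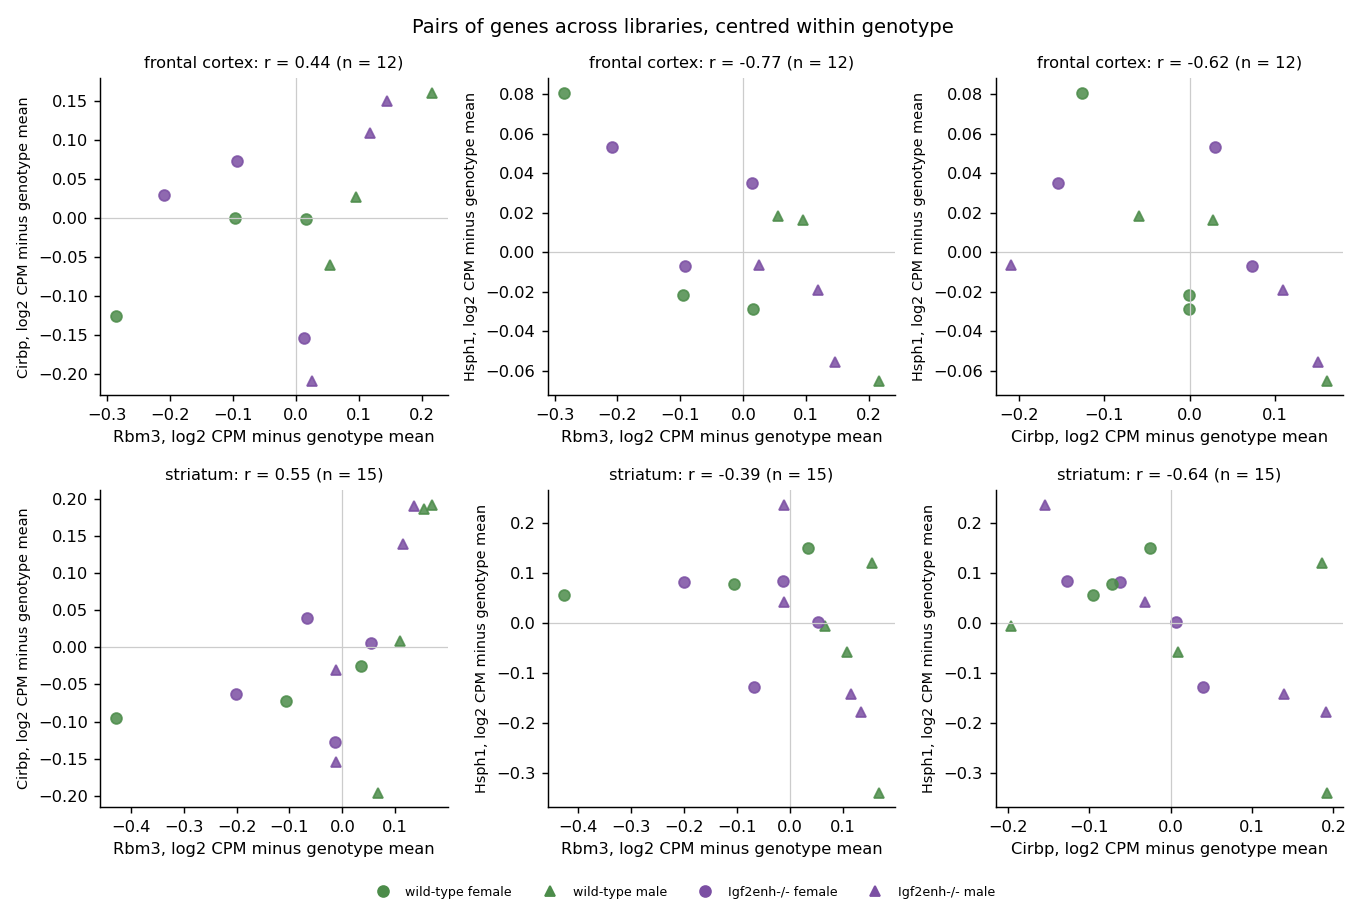
Each point is a library, with log2 CPM of a gene on each axis after its genotype mean was subtracted, in frontal cortex (top row, n = 12) and striatum (bottom row, n = 15). Green is wild-type, purple Igf2enh-/-, circles are females and triangles males. Points run upward for Rbm3 with Cirbp (r = 0.44 and 0.55) and downward for Cirbp with Hsph1 (r = -0.62 and -0.64).

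To place these relations among all genes, the correlation with each member was computed for 13413 other genes after genotype and sex had been removed, and averaged over both regions. These are descriptions over 12 and 15 libraries that share depth and tissue make-up. Cirbp had a mean r of 0.41 with Rbm3 and ranked 426 from the top. Hsph1 had a mean r of -0.50 with Rbm3 and -0.59 with Cirbp, at ranks 13307 and 13335. By the mean it thus lay among the genes least like either. With Rbm3 its r was -0.74 in frontal cortex but -0.26 in striatum, and with Cirbp -0.58 and -0.60. Genes most like Rbm3 were Unc5a (a netrin receptor, mean r = 0.77), 9930104L06Rik, Lbr (the lamin B receptor), Gm5113, Xrcc2 (a DNA repair protein), Sec14l2, LTO1 and Prkab2 (a subunit of AMP-activated kinase, mean r = 0.65). The least like it were C1qb (a complement subunit, mean r = -0.77), Hnrnpc (an RNA-binding protein, -0.73), Srbd1 and Tbx3.

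Among genes with a symbol, Cirbp was most like Gnpda1 (an enzyme of amino sugar metabolism, mean r = 0.82), Anapc7 (a subunit of the anaphase-promoting complex, 0.78), Rnaseh1, Plpp7, Zdhhc4, Eef2k (the kinase of elongation factor eEF2), Rtf1 and Slc9a8. The least like it was Hspa5, the main chaperone of the endoplasmic reticulum, with a mean r of -0.76, followed by Fam241a, Tdrd7 and Mn1. Clock-controlled genes were compared by region. Ciart, a repressor within the clock, had an r with Rbm3 of 0.65 in frontal cortex and 0.44 in striatum (rank 61 by the mean), and of -0.12 and 0.05 with Cirbp. Dbp, a PAR bZIP factor that follows the clock, had 0.73 and 0.08 with Rbm3, and -0.08 and -0.18 with Cirbp. The PAR bZIP gene Tef had 0.57 and 0.15 with Rbm3 and -0.42 and -0.13 with Cirbp, and Hlf had 0.17 and 0.34 with Rbm3 and -0.51 and 0.03 with Cirbp.

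**Figure D3:**
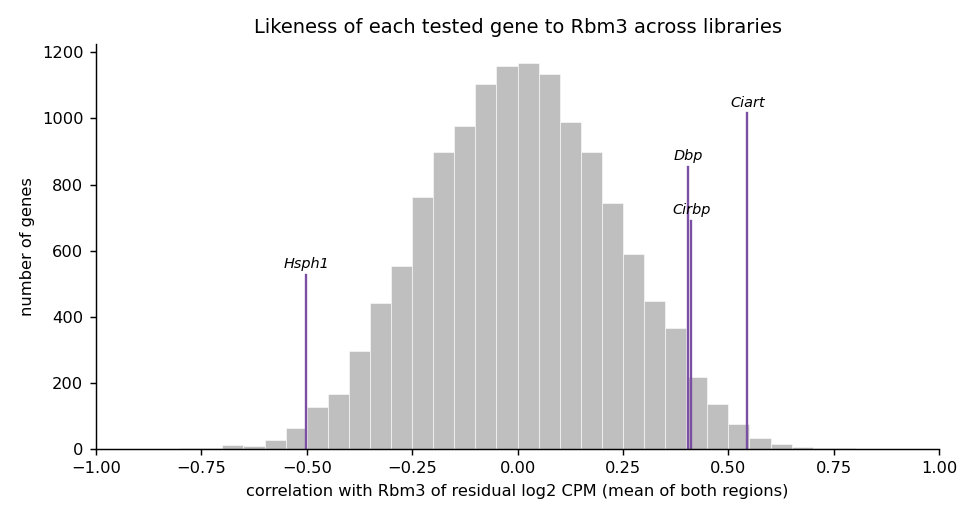
Number of genes (y axis) by their correlation with Rbm3 across libraries after genotype and sex were removed, averaged over both regions (x axis, bins of 13413 genes). Vertical lines mark Hsph1 at -0.50, Dbp at 0.40, Cirbp at 0.41 and Ciart at 0.55. Of 21 clock genes, 13 had a positive value (median 0.17).

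The heat-responsive chaperones, a list of 27 genes, had low likeness to the cold-inducible pair as a group. Of the 24 measured in both regions, 3 had a positive mean r with Rbm3 and 3 with Cirbp, and the medians were -0.20 and -0.35. Over all genes 6820 and 6725 of 13413 were positive. Low likeness was not particular to this list. For 14 other proteins with an RNA recognition motif and a glycine-rich end, 3 were positive with Rbm3 and 6 with Cirbp (medians -0.19 and -0.09). Medians were -0.40 and -0.29 for 6 meningeal markers and -0.35 and -0.40 for 3 blood markers. The 3 cortical neuron markers had positive medians, 0.39 and 0.33. By region these were 0.53 (Rbm3) and 0.54 (Cirbp) in striatum, and 0.25 and 0.13 in frontal cortex. For 5 medium spiny neuron markers the medians were -0.26 and -0.43 in striatum, and 0.33 and 0.08 in frontal cortex. By genotype, 3 of 26 tested chaperone genes rose in Igf2enh-/- frontal cortex and none fell, against 0.380% of all genes called. They were Hsph1, Hspa8 (the constitutive Hsc70 chaperone, from 432 ± 11.4 to 488 ± 18.6 CPM, adjusted p = 0.0301) and Stip1 (the adaptor between Hsp70 and Hsp90, from 126 ± 1.85 to 144 ± 4.84 CPM, adjusted p = 0.0140), by edgeR with n = 6 in each group. Hsph1 was itself chosen for comparison with earlier results known, and without it 2 of 25 genes of the list rose. The list was also chosen with earlier results of these data known, so its calls are descriptions and not independent support. In striatum edgeR called 0 of 25 and DESeq2 called 2, where edgeR called 0.0360% of all genes. An unadjusted edgeR p under 0.05 was found for 8 of the list, all with a higher mutant mean, and for 10.0% of all genes in striatum. Hsp90aa1 there had 424 ± 26.1 CPM in 7 wild-type and 486 ± 27.9 CPM in 8 mutant libraries (adjusted p = 0.174 by edgeR). The median log2 difference of the list was 0.07 in both regions, and that of all genes tested was 0.00. In frontal cortex 24 of the list were higher and 2 lower in mutants, and in striatum 19 were higher and 6 lower. The 2 lower in frontal cortex were Hspa1b (-0.01) and Dnajb1 (-0.04), and Bag3 was at 0.00. In striatum Dnajb1 was at -0.02 and Bag3 at -0.06, while Hspa1a and Hspa1b did not pass the filter on low counts.

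Other RNA-binding proteins with the build of Rbm3 and Cirbp, an RNA recognition motif with a glycine-rich or arginine-glycine-rich end, did not pass the edgeR test. Of 14 tested in each region 0 were called, with 2 and 3 at an unadjusted p under 0.05, and the medians were 0.02 and 0.01. By DESeq2 the calls were 1 for frontal cortex and 0 for striatum. The values nearest to a call were those of Hnrnpa1, a splicing regulator, at 0.13 (adjusted p = 0.0822) and 0.10 (adjusted p = 0.443). Cold shock domain proteins, the other family named for cold, had 7 genes tested in each region with 0 called by edgeR or DESeq2, and 1 and 0 at an unadjusted p under 0.05. Among these Csdc2 was at 0.21 in frontal cortex (adjusted p = 0.177).

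For the list above and those that follow, counts of 0 are close to the share called over all genes, and an unadjusted p under 0.05 was found in 13.5% of all genes in frontal cortex and 10.0% in striatum. Genes linked to temperature sensing or to the regulation of Rbm3 and Cirbp were also not called by edgeR. Only their mRNA was measured, not kinase or channel activity, so whether a temperature signal was carried was not tested. CLK kinases and SR proteins, whose activity sets temperature-dependent splicing, had 0 of 18 called in each region by edgeR and by DESeq2, with 2 and 4 at an unadjusted p under 0.05, and medians of -0.03 in both. Clk4 was at -0.12 (adjusted p = 0.351) and -0.15 (adjusted p = 0.258). Temperature-gated TRP channels passed the filter for 5 and 6 of 11 genes, with 0 called and 0 at an unadjusted p under 0.05, and DESeq2 also called 0. TrkB signalling genes that act upstream of Rbm3, listed with its translational target Rtn3, had 0 of 9 and 0 of 8 called by edgeR and DESeq2, with 0 and 2 at an unadjusted p under 0.05. Hypoxia-responsive genes were listed because low oxygen also induces both cold-inducible genes. Of these 0 of 16 and 0 of 15 were called by edgeR, 1 and 1 by DESeq2, with 5 and 2 at an unadjusted p under 0.05, and Ddit4, a stress-induced inhibitor of mTORC1, was at -0.54 (adjusted p = 0.0651) and -0.61 (adjusted p = 0.209).

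Circadian clock genes had values on both sides of 0. In frontal cortex 17 of 21 were lower and 4 higher in mutants (median -0.22), and in striatum 16 of 22 were lower and 6 higher (median -0.16). Arntl, which encodes BMAL1, was at 0.27 (adjusted p = 0.0741) and 0.37 (adjusted p = 0.174), and Nfil3, a repressor that opposes Dbp, at 0.29 (adjusted p = 0.330) and 0.31 (adjusted p = 0.550). In frontal cortex 3 of 21 fell, namely Ciart (log2 difference -1.24, adjusted p = 0.000467), Dbp (-0.80, adjusted p = 0.00449) and Nr1d1, a repressor of Bmal1 (-0.39, adjusted p = 0.0313). Over all genes 0.380% were called. In striatum, where 0.0360% of all genes were called, 1 of 22 fell, Ciart, from 20.2 ± 3.74 to 8.79 ± 1.62 CPM (SD, n = 7 and 8). DESeq2 called 9 and 7 of them. The clock list too was chosen with earlier results of these data known, so its calls are descriptions and not independent support.

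**Figure D4:**
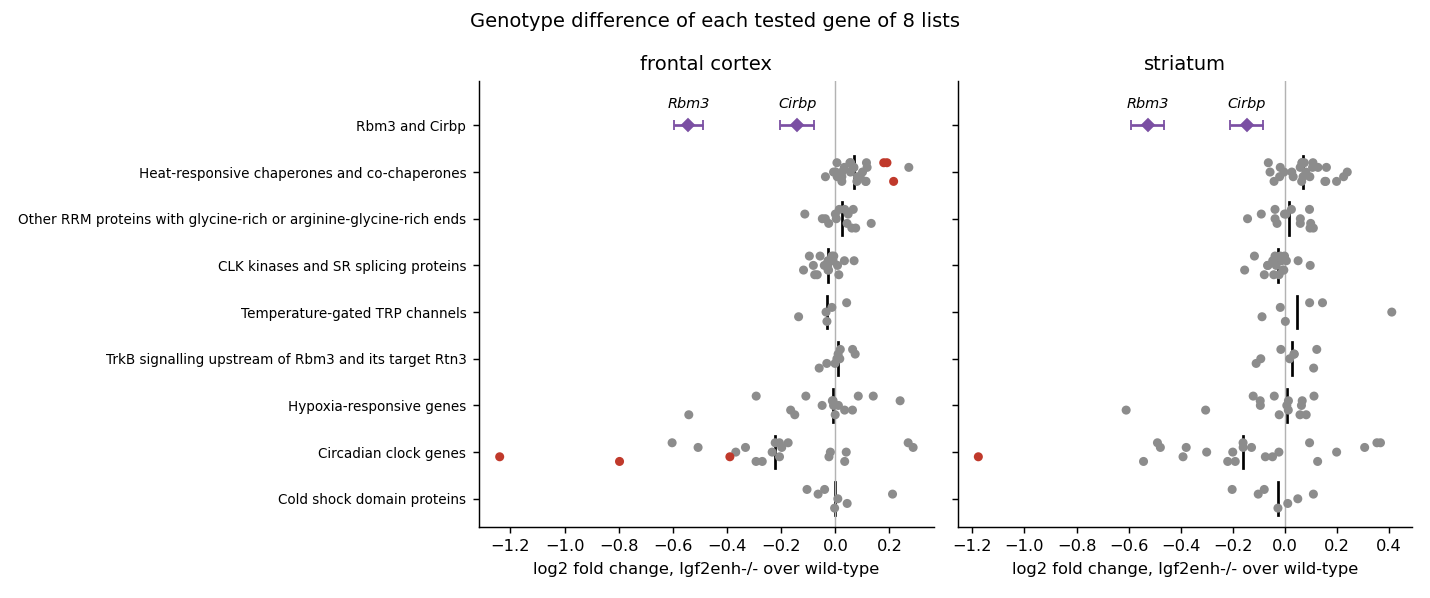
Log2 fold change of Igf2enh-/- over wild-type (x axis) for Rbm3 and Cirbp (diamonds with standard errors) and for each tested gene of 8 lists (rows), in frontal cortex (left) and striatum (right). Red points passed the edgeR test at an adjusted p under 0.05, grey points did not, and black bars are list medians. Rbm3 lay at -0.54 and -0.53, next to Ddit4 of the hypoxia list at -0.54 and -0.61.

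The neighbours of Rbm3 and Cirbp on their chromosomes did not pass in either region. Around Rbm3 the nearest tested genes were Wdr13, at -0.02 in frontal cortex and -0.05 in striatum, and Tbc1d25, at 0.00 and -0.06. The others were Suv39h1, a histone methyltransferase, at -0.13 and -0.17, and Hdac6, Ebp and Porcn, which lay between -0.05 and 0.15. Around Cirbp, Fam174c, whose start lies 158 bases beyond the end of Cirbp, was at 0.07 and 0.23 (adjusted p = 0.844 and 0.570), Midn was at -0.26 and -0.31 (adjusted p = 0.361 and 0.426), and Cbarp, Atp5d, Efna2 and Pwwp3a lay between -0.13 and 0.06.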

How the data were processed

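RNA was profiled in frontal cortex and striatum of wild-type and Igf2enh-/- mice, 1 library per sample, from total RNA depleted of ribosomal RNA. Per the labels and the methods, the authors used Trim Galore 0.5.0 for trimming (reads demultiplexed with bcl2fastq 1.9.0 per the submitters' processing notes) and STAR for alignment to GRCm38 with GENCODE vM15. The deposited values are raw read counts per gene, with no normalization. The counter and its strand setting are not given in the sources used here.

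Groups and sex came from the sample labels, while the design text of the series gives the totals of the genotypes the other way round. Symbols for 32688 of 52636 identifiers came from GENCODE vM1, updated with RefSeq synonyms, and gene coordinates from that annotation (NCBIM37). Promoters came from RefSeq. A gene was tested in a region if no library there had under 1 CPM of it, and these genes held 99.5% to 99.7% of counts. edgeR 4.0.16 (R 4.3.3) quasi-likelihood fits had genotype and sex as terms, with TMM scaling and Benjamini-Hochberg adjustment over all genes at 0.05. This test replaced the likelihood ratio test of the methods, which was an alternative. Standard errors were the log2 difference divided by the square root of F, and intervals are 95%. Correlations used log2(CPM + 0.5). The edgeR fits were tested on simulated data. Lower depth widens these errors, and p-values measure the spread between libraries, which equal the study's mice in number within a region.

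The members, Hsph1 and the gene lists were chosen with earlier results of these data known. Genes named from a list were those called in either region, or otherwise a few of smallest p. Genes like a member were the 8 highest and 4 lowest mean correlations among genes with a symbol. Dbp, Tef and Hlf were added, and so was Ciart, the clock gene called in both regions. Neighbours were the nearest 3 tested genes on each side. Alternatives were DESeq2 1.42.0 and its size factors, limma-voom (limma 3.58.1), the likelihood ratio test, total-count scaling, other filters, an RNA integrity term, each sex alone and each library left out. The alternatives with meningeal markers or with pairs of libraries left out were chosen after seeing the data.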

Additional observations from a re-analysis of the deposited data

Results flagged for a closer look

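Hsph1 in the wild-type striatum had a lowest library, number 20, that stood apart from the other 6. Its level was 258 CPM. On the log2 scale its distance to the nearest other library was 0.573 of the group's range, above the Dixon limit of 0.568 for 7 libraries. On the CPM scale it was 0.532, under that limit, so the flag depends on the scale. The same library had the highest Rbm3 (60.2 CPM) and the highest Cirbp (69.3 CPM) of its group, and the highest sums of cortical neuron and glial markers in striatum. Chance flags about 1 in 20 groups, and 12 groups of libraries were examined over Rbm3, Cirbp and Hsph1. No group of Rbm3 or Cirbp passed the limit on either scale.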

How the results depend on the processing

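The genotype differences of Rbm3 kept their sign under every alternative run, single libraries left out included, from -0.58 to -0.43 in frontal cortex and from -0.60 to -0.44 in striatum, as did those of Cirbp (-0.17 to -0.09 and -0.19 to -0.11). Without the filter on low counts the sex difference of Rbm3 in frontal cortex passed (0.22, adjusted p = 0.0136). With an RNA integrity term the genotype by sex term of Cirbp in frontal cortex turned to 0.0244. Rbm3 with Hsph1 in frontal cortex no longer passed with total-count scaling (-0.767, adjusted p = 0.0508), centring on genotype and sex (-0.805, adjusted p = 0.0568) or 2 libraries fewer (-0.442). Cirbp with Hsph1 in striatum no longer passed with the same 3 changes (-0.612, -0.601 and -0.394). Cirbp with Hsph1 in frontal cortex passed by Spearman's rho (-0.771) and without 2 libraries (-0.882), and Rbm3 with Cirbp in striatum by Spearman's rho (0.686).

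Leaving out single libraries, Rbm3 with Hsph1 in frontal cortex ranged from -0.837 to -0.618 and no longer passed without library 1, 2, 11 or 12. Cirbp with Hsph1 in striatum ranged from -0.843 to -0.526 and no longer passed without library 13, 15, 16, 17, 19, 20, 21, 23, 25 or 27. Cirbp with Hsph1 in frontal cortex ranged from -0.801 to -0.511, passing without library 1 or 7, and Rbm3 with Cirbp in striatum from 0.479 to 0.674, passing without library 14 or 22. Terms near 0 changed sign. The genotype by sex term ranged from -0.121 to 0.0290 for Rbm3 in frontal cortex, and for Cirbp from -0.113 to 0.0578 there and from -0.114 to 0.0231 in striatum. The region by genotype term ranged from -0.0379 to 0.0492 for Rbm3 and from -0.0556 to 0.0179 for Cirbp.

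Counts of called genes moved with the test. Clock genes called in frontal cortex were 3 in the main analysis, 14 without a filter, 5 with filterByExpr, 11 by the likelihood ratio test and 9 by DESeq2, and 2 to 7 with a library left out (7 without library 1, 6 without 3, 5 without 7). In striatum they were 1, then 2, 2, 5 and 7, and 1 to 2 with a library left out (2 without library 26). Hypoxia genes called in frontal cortex were 3 without a filter, 1 by the likelihood ratio test and 1 by DESeq2, and 0 to 1 with a library left out (1 without library 1 or 2). In striatum both of these tests called 1. Heat-responsive genes called in frontal cortex were 1 to 3 with a library left out (1 without library 9 or 10), and DESeq2 called 2 in striatum. Glycine-rich proteins called in frontal cortex were 1 by the likelihood ratio test and 1 by DESeq2, and cold shock domain proteins 1 without a filter. The causes were not tested. No paired analysis was possible because the labels do not state which libraries come from 1 mouse, and no library number is shared between groups.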
